A study of Mus musculus with 17 samples.

Results

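The enzymes that conjugate glutathione, reduce peroxides with it and oxidise aldehydes were followed through RNA sequencing of 17 mouse tumours. The genes were taken by symbol, as every glutathione S-transferase (Gst), microsomal transferase (Mgst), glutathione peroxidase (Gpx) and aldehyde dehydrogenase (Aldh) in the count tables. This gave 52 of 23284 genes, made up of 21 Gst, 3 Mgst, 8 Gpx and 20 Aldh genes. The tumours came from genetically engineered mice with alleles of Rb1, Trp53 and Crebbp (8 tumours) or of Rb1 and Trp53 alone (9 tumours), so both groups shared the Rb1 and Trp53 alleles. Rb1 and Trp53 encode tumour suppressors, and Crebbp encodes a histone acetyltransferase and transcriptional coactivator. The labels give neither the kind of allele, nor the Cre driver, nor the age of the animals, and do not state whether each tumour is from its own mouse. The p-values therefore cover no more than the variation among these libraries. The design compares the Rb1/Trp53/Crebbp tumours with the Rb1/Trp53 tumours.

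All tumours are labelled as neuroendocrine tumours of the pituitary, but the libraries fell into sets that the labels do not name. In 10 libraries the count of Pomc, the precursor of ACTH, exceeded that of Calca, which encodes calcitonin, a product of thyroid C cells. These Pomc-high libraries are Rb1/Trp53/Crebbp T5 to T8 (n = 4) and Rb1/Trp53 T2 and T5 to T9 (n = 6). The Calca-high libraries are Rb1/Trp53/Crebbp T1 to T4 (n = 4) and Rb1/Trp53 T1, T3 and T4 (n = 3). In the 7 Calca-high libraries the summed level of 9 markers of other anterior lobe cells was at most 0.556 CPM (counts scaled to library size), and Gh was at 0 in each. Tg, the thyroglobulin gene of thyroid follicular cells, stood at 906 to 1259 CPM in the Rb1/Trp53/Crebbp and 2071 to 16680 CPM in the Rb1/Trp53 libraries of that set. The pituitary label was thus not borne out by these markers in the Calca-high libraries, and the sets were defined from the counts, not by the study. Crebbp itself stood at 42.7 to 62.4 CPM in Rb1/Trp53/Crebbp and 39.5 to 115 CPM in Rb1/Trp53 libraries of the Pomc-high set, and at 67.7 to 93.9 against 48.6 to 56.1 CPM in the Calca-high set, where its log2 fold change was 0.60 (adjusted p = 0.00723). The deleted part of the gene is not given, so this whole-gene count is no check of the label, and the genotypes are used as labelled. Trp53, whose alleles both groups share, had 11.9 to 17.5 against 21.2 to 33.2 CPM in the Calca-high set (log2 fold change -0.84, edgeR adjusted p = 0.0116). In the Pomc-high set it had 15.3 to 17.5 against 12.5 to 27.9 CPM (-0.28, adjusted p = 0.351). Rb1 did not pass in either set (adjusted p = 0.112 in Calca-high and 0.332 in Pomc-high). Gene counts per library totalled 8328297 to 28140755, with a median of 13456360.

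Glutathione S-transferases attach the tripeptide glutathione to electrophiles, including lipid peroxidation products, which marks them for export. Glutathione peroxidases use the same thiol to reduce hydrogen and lipid peroxides, and aldehyde dehydrogenases oxidise reactive aldehydes to acids, among them retinaldehyde to retinoic acid. Many of these genes are targets of NRF2, the transcription factor (gene Nfe2l2) that binds antioxidant response elements when electrophiles disable its inhibitor KEAP1. They are best known from liver, but endocrine tissues that make hydrogen peroxide, such as the thyroid, also rely on them.

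Several members share a neighbourhood, in the gene order of the GRCm38 annotation. Gstm5, Gstm7, Gstm6, Gstm3, Gstm2, Gstm1 and Gstm4 lie side by side on chromosome 3, and Gstt3, Gstt1, Gstt4 and Gstt2 on chromosome 10. Promoters from RefSeq (build GRCm38.p6), running from 250 bases before to 50 bases after a transcript start, matched 44 of the 52 genes with 58 promoters. They were searched on both strands for TGACNNNGC, the core of the antioxidant response element, whose first 4 letters are also those of the cyclic AMP response element. The core was present in 6 of 58 member promoters (10.3%) and in 12.4% of all 32851 promoters of that length. The genes were Aldh1a2, Aldh9a1, Gsta3, Gstm5, Gstm7 and Mgst1. The full cyclic AMP response element TGACGTCA, which reads the same on both strands, was in none of the 58 and in 1.79% of all promoters. A match describes letters and not a bound site, and no match says only that the letters are not in this window. Shown here, 5′ to 3′ on the gene's strand with the core in capitals, are the promoters of Mgst1 (chr6:138140277-138140576, plus strand, core on the opposite strand), Gstm5 (chr3:107895604-107895903, plus strand) and Gstm7 (chr3:107931565-107931864, minus strand), as the 3 with the core that had the smallest adjusted p in the Calca-high libraries. Of the others with the core, Gsta3 fell there too, and Aldh9a1 and Aldh1a2 did not pass. Most tested members in which no core was found fell as well. Gstm2 (chr3:107986371-107986670, minus strand) is added as the neighbour with the smallest adjusted p there and has no core.
Mgst1: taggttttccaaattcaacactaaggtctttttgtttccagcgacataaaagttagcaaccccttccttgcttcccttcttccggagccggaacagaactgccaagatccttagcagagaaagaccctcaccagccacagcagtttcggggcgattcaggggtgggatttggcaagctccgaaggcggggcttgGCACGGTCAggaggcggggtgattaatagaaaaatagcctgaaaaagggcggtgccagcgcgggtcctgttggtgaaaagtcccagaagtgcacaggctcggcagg
Gstm5: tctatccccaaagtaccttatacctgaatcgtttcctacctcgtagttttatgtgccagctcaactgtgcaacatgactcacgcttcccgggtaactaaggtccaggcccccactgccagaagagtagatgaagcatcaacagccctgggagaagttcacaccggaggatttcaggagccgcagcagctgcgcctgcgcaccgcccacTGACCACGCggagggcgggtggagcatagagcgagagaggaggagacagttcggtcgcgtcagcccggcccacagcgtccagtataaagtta
Gstm7: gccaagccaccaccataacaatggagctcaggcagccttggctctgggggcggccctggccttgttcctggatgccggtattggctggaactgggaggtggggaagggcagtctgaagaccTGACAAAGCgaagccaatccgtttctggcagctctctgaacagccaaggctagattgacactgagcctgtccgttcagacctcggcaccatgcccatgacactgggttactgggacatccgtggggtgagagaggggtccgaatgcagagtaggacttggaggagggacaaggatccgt
Gstm2: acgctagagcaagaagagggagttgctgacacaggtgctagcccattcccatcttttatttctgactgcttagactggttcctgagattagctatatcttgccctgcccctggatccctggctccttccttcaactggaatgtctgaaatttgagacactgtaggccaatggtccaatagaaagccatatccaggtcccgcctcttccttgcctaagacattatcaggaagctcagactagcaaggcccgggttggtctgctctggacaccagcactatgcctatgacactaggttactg

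Not every member was expressed. Counts were present in every library for 38 members, and 42 passed the low-count filter in at least 1 comparison. Aldh3a1, Aldh8a1, Gpx5, Gpx6, Gsta1, Gsta2, Gstm3, Gstt4 and Mgst2 stayed under 1 CPM in all 17 libraries, and Aldh3b2 reached 1.44 CPM at most and was not tested either. Some counts are uncertain because transcripts share 50-base stretches with other genes. The shared part was 51% of Gstp1 and 50.4% of Gstp2 with each other, 51.4% of Gpx4 with its pseudogene Gpx4-ps2, 45% of Aldh4a1 with Gm21969, 20.6% of Gstt3 with Gm20441, 19.9% of Gstm1 with Gstm3 and 18.9% of Gpx2 with Gpx2-ps1. Exons of Aldh1l2, Gstz1, Aldh6a1, Aldh16a1 and Aldh7a1 overlap a coding gene on the other strand, whose reads cannot be told apart without the strand setting.

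In the Pomc-high libraries few members differed by genotype. Of the 37 tested, 4 were lower in Rb1/Trp53/Crebbp than in Rb1/Trp53 libraries and 0 were higher at an adjusted p under 0.05 (edgeR quasi-likelihood test, Benjamini-Hochberg over 14010 genes). That is 10.8% of the members, beside 8.42% of all genes tested in either direction, 5.26% lower and 3.15% higher. DESeq2 called 2 higher and 6 lower, beside 13.8% of all genes called in either direction. In edgeR 13 of the 37 had an unadjusted p under 0.05, a count with no share of all genes beside it. The median log2 fold change was -0.10 over the members and 0.01 over all genes. By family, 2 of 15 Gst, 0 of 2 Mgst, 1 of 5 Gpx and 1 of 15 Aldh genes fell. In bulk tumours, fewer cells of a type and less RNA per cell cannot be told apart.

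Gpx3, the secreted peroxidase of plasma, fell most reliably. Its level was 264, 259.6, 244 and 243 CPM in Rb1/Trp53/Crebbp T5 to T8, against 287 to 534 CPM, median 454, in the Rb1/Trp53 libraries, of which T2 was the lowest. Every Rb1/Trp53/Crebbp library lay below every Rb1/Trp53 library, as was the case for 3 members (Gpx3, Gstm2 and Aldh9a1) and for 5.77% of all genes in this direction. The opposite separation held for 3.89% of all genes, and either for 9.66%. The log2 fold change was -0.76 ± 0.15 (SE; adjusted p = 0.00907), and Gpx3 passed the test in every fit run on this comparison.

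The other falls were in transferases and in proline synthesis. Gstm2, a mu-class transferase, had 3.47, 2.88, 2.64 and 3.76 CPM in the Rb1/Trp53/Crebbp libraries, against 3.81 to 8.98 CPM, median 7.42, in the Rb1/Trp53 libraries. The groups did not overlap, although Rb1/Trp53 T2 lay close to the Rb1/Trp53/Crebbp libraries, and the log2 fold change was -1.05 ± 0.29 (adjusted p = 0.0389). Gstt2, a theta-class transferase, had 4.84, 3.25, 2.75 and 4.25 CPM, against 4.54 to 9.59 CPM, median 8.27, in Rb1/Trp53 libraries. Only Rb1/Trp53 T2 fell inside the range of the Rb1/Trp53/Crebbp libraries (log2 fold change -0.97 ± 0.25, adjusted p = 0.031). Aldh18a1, which makes pyrroline carboxylate on the way to proline and ornithine, had 112, 162, 119.8 and 88.3 CPM in Rb1/Trp53/Crebbp, against 151 to 195 CPM, median 171, in Rb1/Trp53 libraries. Rb1/Trp53/Crebbp T6 lay within the Rb1/Trp53 range, and the log2 fold change was -0.48 ± 0.14 (adjusted p = 0.0482). These 3 calls rest on most of the libraries: with each of the 10 left out in turn, Gstt2 passed in 4 fits, Gstm2 in 3 and Aldh18a1 in 1, with log2 values of -1.11 to -0.85, -1.17 to -0.95 and -0.66 to -0.35. The number of members called was 2 without Rb1/Trp53 T5, T6 or T8 or Rb1/Trp53/Crebbp T5, and 1 without Rb1/Trp53 T7 or Rb1/Trp53/Crebbp T7.

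Most of the abundant members of each family did not pass. Gstz1, the maleylacetoacetate isomerase of tyrosine breakdown, had a log2 fold change of 0.00 ± 0.11 with 51.6 to 57.3 CPM in Rb1/Trp53/Crebbp and 46.9 to 64.1 CPM in Rb1/Trp53 libraries. Gpx4, which reduces phospholipid hydroperoxides and protects from ferroptosis, had 188 to 252 against 145 to 289 CPM (0.08 ± 0.16), and Aldh2, the main acetaldehyde dehydrogenase of mitochondria, 62.7 to 64.8 against 49.3 to 71.5 CPM (0.10 ± 0.10). Gstm1 (-0.56 ± 0.31), Gstm5 (0.36 ± 0.18), Mgst3 (0.52 ± 0.19), Mgst1 (-0.56 ± 0.35), Gpx1 (0.15 ± 0.14) and Aldh6a1 (-0.05 ± 0.11) did not pass either. The library Rb1/Trp53/Crebbp T8 had the highest Gstm1, Gsta4 and Mgst1 of its group (89.2, 10.8 and 9.61 CPM) and a summed level of 10 astroglial markers of 1541 CPM, against 134 to 330 CPM in the other 3 and 221 to 624 CPM in the Rb1/Trp53 libraries (0 of 8 tested markers past the threshold, 5 at an unadjusted p under 0.05). The summed markers of endothelium (17.6 to 45.5 against 34.7 to 59.6 CPM) and macrophages (18.9 to 154 against 77.5 to 225 CPM) overlapped between the genotypes. Of their tested markers 1 of 7 and 1 of 9 were lower, and 5 and 4 had an unadjusted p under 0.05 (edgeR). The pituitary POMC-cell markers of the set itself summed to 95827 (T8) to 234440 against 214850 to 325030 CPM. Of these, 1 of 6 tested was lower and 5 had an unadjusted p under 0.05 (edgeR), with a median log2 fold change of -0.50. The list includes Pomc, whose count defined the sets, so its values are no independent measure of these cells. The share of all genes called was 8.42%. The part of these cells in the falls was not tested.

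In the Calca-high libraries most members were lower in the tumours labelled Rb1/Trp53/Crebbp. Of the 42 tested, 27 fell, 2 rose (Aldh1l2 and Aldh5a1) and 13 did not pass. The share called was 69% (64.3% lower, 4.76% higher), beside 36.2% of all 14797 genes tested (17.1% lower, 19.1% higher). The median log2 fold change was -0.85 over the members and -0.02 over all genes. Every Rb1/Trp53/Crebbp library lay below every Rb1/Trp53 library for 29 members, which holds for 22.6% of all genes, and above for 2, which holds for 21.8%. The falls covered 14 of 17 Gst, 2 of 2 Mgst and 5 of 6 Gpx genes, but 6 of 17 Aldh genes.

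**Figure D1:**
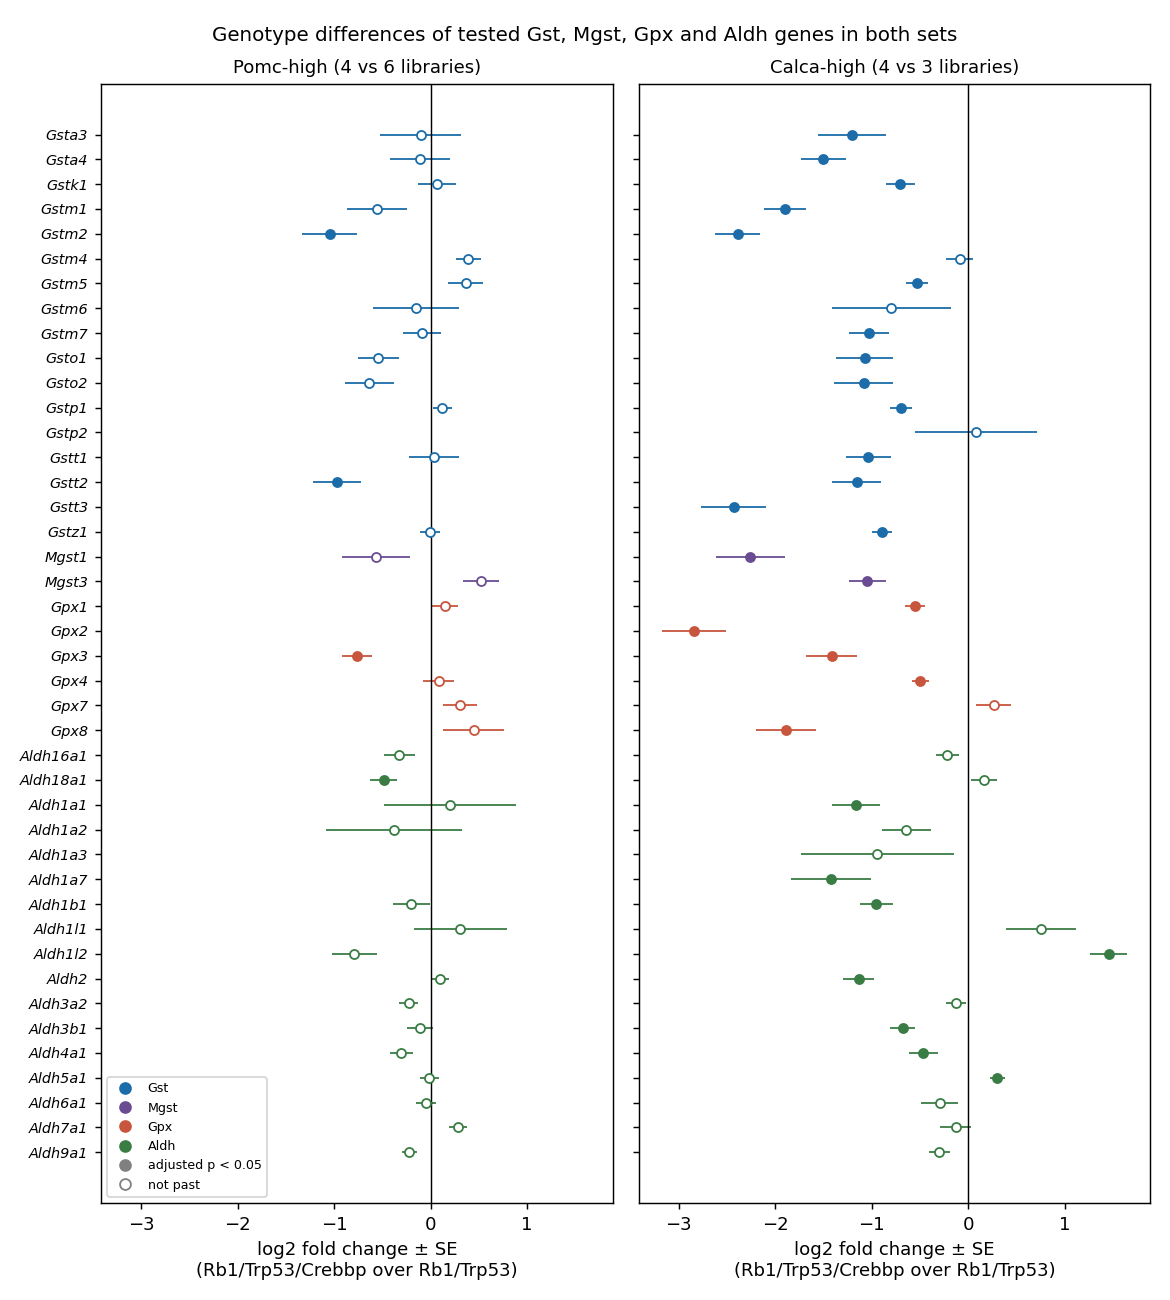
Log2 fold change (x axis, ± SE) of Rb1/Trp53/Crebbp over Rb1/Trp53 libraries for each tested member (y axis), in the Pomc-high libraries on the left (4 against 6) and the Calca-high libraries on the right (4 against 3). Filled points have an adjusted p under 0.05; 4 lie below 0 on the left, and 27 below and 2 above 0 on the right, and the 5 members with no point on the left were not tested there.

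Mu-class transferases showed some of the largest falls. Gstm2 had 3.82, 4.41, 4.05 and 6.19 CPM in Rb1/Trp53/Crebbp T1 to T4, against 29.9, 25.8 and 18.2 CPM in Rb1/Trp53 T1, T3 and T4. The groups lay far apart, with a log2 fold change of -2.39 ± 0.23 (adjusted p = 0.000911), the smallest adjusted p among the members. Gstm1 had 71.0, 63.7, 59.1 and 40.6 CPM, against 167, 227 and 270.1 CPM in the Rb1/Trp53 libraries, without overlap (-1.90 ± 0.22, adjusted p = 0.00138). Gstm7 (-1.03 ± 0.21) and Gstm5 (-0.53 ± 0.12) fell as well, while Gstm4 (-0.09 ± 0.14) and Gstm6 (-0.80 ± 0.61) did not pass. Of the 7 neighbours on chromosome 3, 4 thus fell, 2 did not pass and Gstm3 was not tested.

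The theta, alpha, pi, kappa, omega and zeta classes fell too. Gstt3, a theta-class transferase, had 3.18, 2.94, 2.51 and 3.69 CPM in Rb1/Trp53/Crebbp, against 24.3, 17.4 and 8.59 CPM in Rb1/Trp53 libraries. No library overlapped, and T4 stood well below the other Rb1/Trp53 libraries (log2 fold change -2.43 ± 0.34, adjusted p = 0.00219). Its neighbours Gstt2 (-1.16 ± 0.25) and Gstt1 (-1.04 ± 0.23) fell, so that all 3 tested genes of the chromosome 10 group were lower. Gsta4, which conjugates hydroxynonenal from peroxidised lipids, had 4.99, 3.37, 4.82 and 4.16 CPM, against 14.9, 13.2 and 9.10 CPM, again without overlap (-1.50 ± 0.23, adjusted p = 0.00283). Gstz1 had 41.1, 37.9, 35.0 and 40.0 CPM in Rb1/Trp53/Crebbp, against 81.6, 65.7 and 69.8 CPM in Rb1/Trp53 libraries. The replicates were tight on both sides (-0.90 ± 0.10, adjusted p = 0.00139). Gstp1, the pi-class enzyme, had 33.2, 27.8, 32.2 and 33.7 CPM against 45.5, 51.3 and 59.3 CPM, without overlap (-0.70 ± 0.11, adjusted p = 0.00335). Gsta3 (-1.20), Gstk1 of mitochondria and peroxisomes (-0.70), and Gsto1 (-1.07) and Gsto2 (-1.09), which reduce dehydroascorbate, completed the 14 falls, and Gstp2 did not pass (0.07 ± 0.63).

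Both expressed microsomal transferases, which sit in membranes and act on lipid hydroperoxides, were lower. Mgst3 had 17.6, 15.6, 12.4 and 10.9 CPM in Rb1/Trp53/Crebbp, against 30.3, 33.5 and 24.6 CPM in Rb1/Trp53 libraries (-1.04 ± 0.19, adjusted p = 0.0052). Mgst1 had 4.82 to 9.37 against 16.9 to 45.7 CPM (-2.26 ± 0.36, adjusted p = 0.00346). Neither gene's groups overlapped.

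Among the peroxidases, Gpx2, the form known from the gut lining, changed most. It had 1.49, 1.59, 1.87 and 2.97 CPM in Rb1/Trp53/Crebbp, against 20.8, 11.9 and 10.9 CPM in Rb1/Trp53 libraries, a log2 fold change of -2.84 ± 0.33 (adjusted p = 0.00136). Gpx8, a peroxidase of the endoplasmic reticulum, had 2.23, 3.98, 1.67 and 3.09 CPM, against 12.7, 9.48 and 8.89 CPM (-1.89 ± 0.31, adjusted p = 0.00363). Neither pair of groups overlapped, and Gpx7, the other peroxidase of that compartment, did not pass (0.26 ± 0.18). Gpx3 had 814, 1185, 513 and 1018 CPM in Rb1/Trp53/Crebbp, against 2161, 2734 and 2260 CPM in Rb1/Trp53 libraries (-1.42 ± 0.26, adjusted p = 0.00576). Gpx1, the ubiquitous cytosolic form, had 46.0, 53.7, 44.4 and 56.7 CPM against 76.3, 72.1 and 76.0 CPM (-0.56 ± 0.10, adjusted p = 0.00567). Gpx4 also fell (-0.50 ± 0.09), by the least of the 5.

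The aldehyde dehydrogenases split. Aldh2 had 231, 199.9, 166 and 193 CPM in Rb1/Trp53/Crebbp, against 459, 516 and 345 CPM in Rb1/Trp53 libraries, with no overlap and a log2 fold change of -1.14 ± 0.16 (adjusted p = 0.00234). The mitochondrial Aldh1b1 (-0.95 ± 0.17), Aldh3b1, which acts on medium- and long-chain aldehydes (-0.68 ± 0.13), Aldh1a1, a retinaldehyde dehydrogenase (-1.16 ± 0.25), its neighbour Aldh1a7 (-1.42 ± 0.42) and Aldh4a1, which breaks down proline (-0.47 ± 0.15), fell too. Aldh1l2, the mitochondrial formyltetrahydrofolate dehydrogenase of folate metabolism, went the other way, with 31.3, 46.0, 49.98 and 48.3 CPM against 12.8, 17.5 and 18.3 CPM. All its Rb1/Trp53/Crebbp libraries exceeded all Rb1/Trp53 libraries (1.45 ± 0.19, adjusted p = 0.00186). Aldh5a1, the succinic semialdehyde dehydrogenase of GABA breakdown, had 39.7, 39.7, 41.9 and 40.4 CPM against 32.3, 32.7 and 34.8 CPM, a small shift without overlap (0.30 ± 0.08, adjusted p = 0.0187). Aldh18a1 (0.16 ± 0.13) and Aldh6a1, of valine breakdown (-0.30 ± 0.19), did not pass. Nor did the retinaldehyde dehydrogenases Aldh1a2 (-0.64 ± 0.25) and Aldh1a3 (-0.94 ± 0.79).

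**Figure D2:**
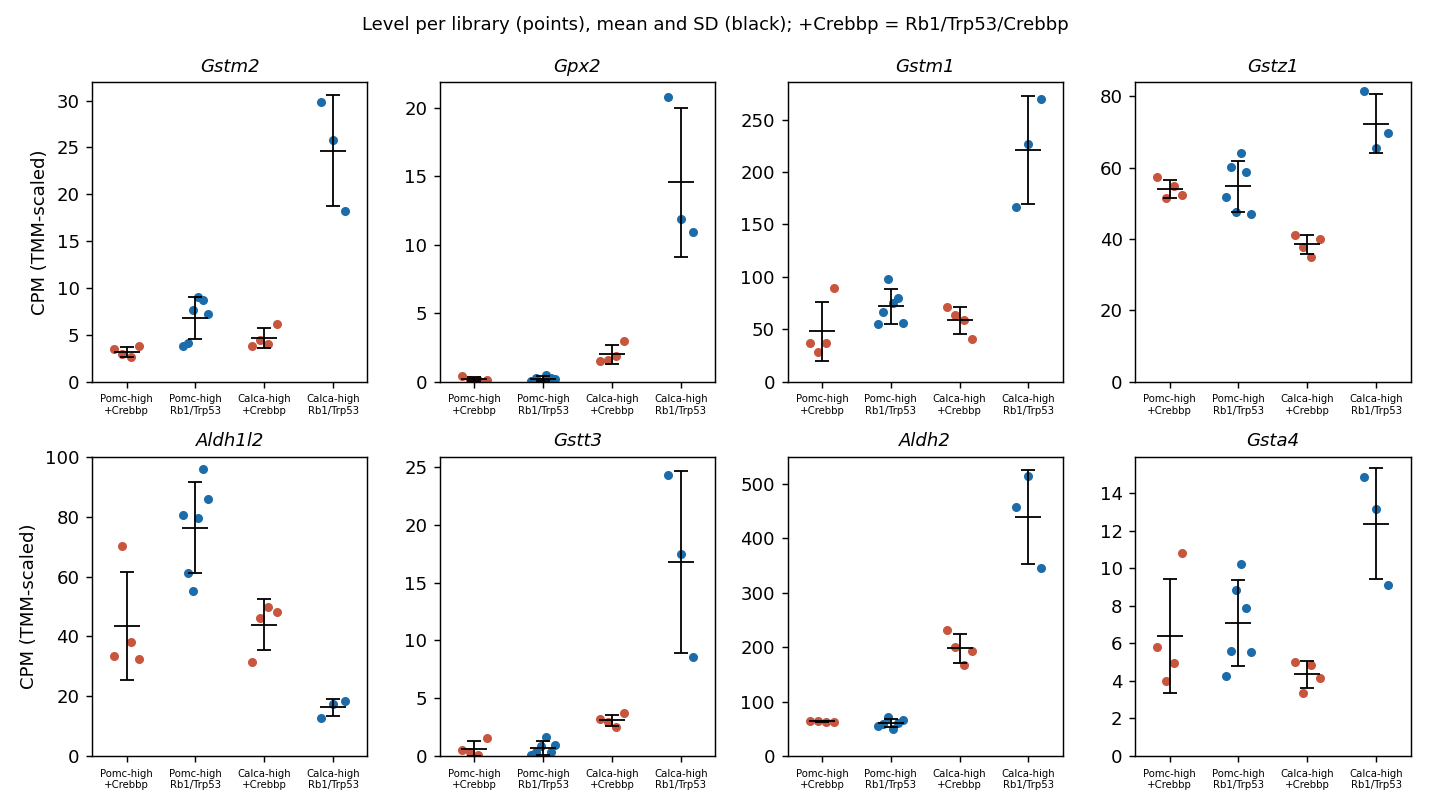
Level in CPM (y axis, from 0) of 8 members in each library (points), with mean and SD in black, for Pomc-high and Calca-high Rb1/Trp53/Crebbp and Rb1/Trp53 libraries. In the Calca-high set the Rb1/Trp53 libraries lie above all others for Gstm1, Gstm2, Gpx2, Gstt3 and Aldh2 and below all others for Aldh1l2.

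Markers of several other cell types were lower in the Rb1/Trp53/Crebbp libraries of this set. Beside them, 36.2% of all genes were called in this comparison (17.1% lower), and 22.6% were lower without overlap. The summed level of 8 thyroid follicular markers was 950 to 1326 CPM in Rb1/Trp53/Crebbp, against 17086 (T1), 6928 (T3) and 2178 CPM (T4) in Rb1/Trp53 libraries, and 7 of 8 were lower. Fat cell markers summed to 6.82 to 10.3 CPM, against 236 (T1), 187 (T3) and 41.0 CPM (T4), with all 5 tested lower. Lung epithelial (68.4 to 101 against 221 to 362 CPM, 5 of 7 lower and 1 higher), endothelial (31.2 to 42.9 against 59.7 to 71.4 CPM, 6 of 8 lower), folliculostellate (76.2 to 94.3 against 133 to 161 CPM, 3 of 6 lower) and macrophage sums (54.3 to 143 against 153 to 196 CPM, 2 of 9 lower) did not overlap. The fibroblast sums overlapped (199 to 641 against 562 to 890 CPM, 0 of 8 past and 2 at an unadjusted p under 0.05 in edgeR). So did the hepatocyte sums (216 to 605 against 90.7 to 900.2 CPM, 1 of 6 higher and 1 lower), in which Alb was at 0 throughout. The astroglial sums overlapped as well (356 to 584 against 369 to 475 CPM, 1 of 7 higher and 1 lower). Of 4 tested POMC-cell markers, 1 was higher and 2 were lower. The C-cell markers of the set itself were also lower, with sums of 35014 to 68089 against 118420 to 178620 CPM, 3 of 4 tested past the threshold and a median log2 fold change of -0.90. The C-cell list includes Calca and the POMC-cell list Pomc, whose counts defined the sets, so neither list is an independent measure of its cells. The part of all these cell types in the member falls was not tested. Rb1/Trp53 T4 had the lowest follicular, fat, lung, endothelial and macrophage sums of its group and the highest fibroblast and hepatocyte sums (890 and 900.2 CPM). It had the highest Gstm1 and Gstp1 of the 3 (270.1 and 59.3 CPM) but the lowest Gstt3, Gpx2 and Mgst1 (8.59, 10.9 and 16.9 CPM). With T4 as the only Rb1/Trp53 library, assumed to vary like the others, 16 members were lower and 1 was higher, beside 16.8% of all genes called in either direction. The median log2 fold change was then -0.78, and 12 members lost their call, among them Mgst3 (-0.77, adjusted p = 0.0892), Gpx3 (-1.32, adjusted p = 0.0641) and Gsta4 (-1.04, adjusted p = 0.0601). Gstm1 (-2.17, adjusted p = 0.00664), Gstm2 (-1.94, adjusted p = 0.0113), Gstz1 (-0.83, adjusted p = 0.0137), Gstp1 (-0.87, adjusted p = 0.0138), Gpx2 (-2.42, adjusted p = 0.0135), Aldh2 (-0.77, adjusted p = 0.0324) and Aldh1l2 (1.29, adjusted p = 0.025) kept theirs.

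**Figure D3:**
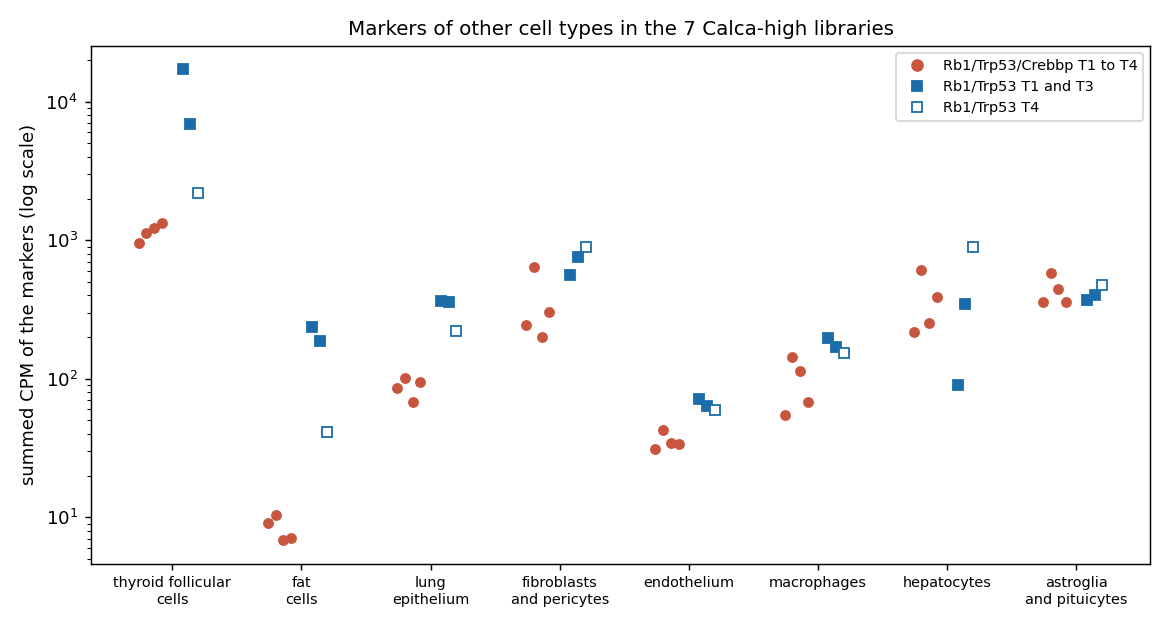
Summed CPM (y axis, log scale) of markers of 8 other cell types in the 7 Calca-high libraries, Rb1/Trp53/Crebbp as circles and Rb1/Trp53 as squares, with T4 open. Follicular, fat, lung, endothelial and macrophage sums are lower in every Rb1/Trp53/Crebbp library, and T4 is nearest to them for the follicular and fat sums.

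With each of the 7 libraries left out in turn, 23 to 28 members were called and 23 of the 29 kept their call each time. The other 6 lost it without some library: Aldh1a7 passed in 2 of 7 fits (log2 -1.69 to -0.75), Aldh4a1 in 2 (-0.61 to -0.33), Aldh5a1 in 3 (0.27 to 0.33), Gsta3 in 3 (-1.48 to -0.93), Gsto1 in 3 (-1.30 to -0.70) and Gsto2 in 4 (-1.29 to -0.73). Aldh1a7 stood at -0.75 without Rb1/Trp53 T1, the library with its highest level.

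The response to genotype was then compared between the sets by an interaction term, as the log2 fold change in the Pomc-high minus that in the Calca-high libraries. Of 42 members, 16 had a positive difference past the threshold and 2 a negative one. The share was 42.9% (38.1% positive), beside 22.9% of all 15432 genes (10% positive and 12.8% negative). Gpx2, Gstt3, Gstp2, Aldh1a3 and Aldh1a7 passed the low-count filter only through the Calca-high libraries, so their differences are no test of a response in both sets; Gpx2 is 1 of the 16. Among the 37 members tested within both sets, 15 differed positively and 2 negatively (45.9%, beside 24.5% of 13632 genes, 10.6% positive and 13.9% negative), with a median of 0.64, beside 0.00 over these genes. Aldh2 differed with the smallest adjusted p (1.23 ± 0.18, adjusted p = 0.00037), having a genotype difference of 0.10 among Pomc-high and -1.14 among Calca-high libraries. The others with the smallest adjusted p were Aldh1l2 (-2.25 ± 0.35, adjusted p = 0.000569), Gstz1 (0.89 ± 0.15, adjusted p = 0.000932), Mgst3 (1.56 ± 0.27, adjusted p = 0.00103), Gstp1 (0.81 ± 0.15, adjusted p = 0.00165), Gpx8 (2.33 ± 0.48, adjusted p = 0.00318), Gpx1 (0.70 ± 0.19, adjusted p = 0.0156) and Gstm5 (0.89 ± 0.25, adjusted p = 0.0177). These 8 members passed in every leave-one-out fit, and the other 10 (Gstm2, Gsta4, Mgst1, Gstm1, Aldh18a1, Gstm7, Aldh1b1, Gpx2, Gstk1 and Gstt1) did not.

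Most of these members had overlapping genotypes in the Pomc-high libraries. Gpx8 had 4.63 to 5.84 CPM in Rb1/Trp53/Crebbp and 1.74 to 6.24 CPM in Rb1/Trp53 Pomc-high libraries, and Mgst3 had 9.54 to 12.2 against 5.28 to 10.5 CPM. Gstm5 had 52.7 to 65.2 against 30.9 to 56.8 CPM, and Gstp1 35.6 to 47.2 against 37.2 to 43.7 CPM. For each of them the genotypes overlapped in that set. Aldh1l2 had 33.3, 70.4, 38.0 and 32.4 CPM in Rb1/Trp53/Crebbp Pomc-high libraries, against 55.2 to 96.0 CPM, median 80.1, in Rb1/Trp53 ones. Rb1/Trp53/Crebbp T6 was the only one to reach the Rb1/Trp53 range, and that fall was not past the threshold (-0.79 ± 0.23, adjusted p = 0.0584). With T4 as the only Rb1/Trp53 Calca-high library, 10 members differed, 9 of them positively, beside 11.6% of all genes. Without Rb1/Trp53 T3 the number was also 10, and it was 11 without Rb1/Trp53/Crebbp T3 or T5. The members lower in both sets were Gpx3, Gstm2 and Gstt2, 3 of the 4 falls in the Pomc-high and 3 of the 27 in the Calca-high set. As 64.3% of the members tested in the Calca-high set fell there, this overlap is no sign of a shared response. The share of all genes lower in both sets was not computed. In the interaction test Gpx3, Gstm2 and Gstt2 differed between sets by 0.65 ± 0.30 (adjusted p = 0.121), 1.34 ± 0.38 (adjusted p = 0.0201) and 0.18 ± 0.36 (adjusted p = 0.754).

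Over all 17 libraries without regard to set, 4 of 38 members fell and 0 rose (10.5%, beside 3.86% of 14338 genes, 2.05% lower and 1.81% higher). Here 11 of the 38 had an unadjusted p under 0.05 (edgeR), a count with no share of all genes beside it. Neither DESeq2 nor limma-voom called a rise. Gstm2 fell by 1.70 ± 0.40 on the log2 scale (adjusted p = 0.0263), with 2.64 to 6.19 CPM over both sets in Rb1/Trp53/Crebbp libraries and 3.81 to 29.9 CPM in Rb1/Trp53 libraries. Aldh9a1, which oxidises an aldehyde on the way to carnitine, had 57.1 to 68.3 CPM in Rb1/Trp53/Crebbp Pomc-high and 48.2 to 57.7 CPM in Rb1/Trp53/Crebbp Calca-high libraries, against 69.5 to 75.4 and 60.6 to 75.1 CPM in Rb1/Trp53 libraries of the same sets. The genotypes did not overlap in either set, and the log2 fold change was -0.30 ± 0.07 (adjusted p = 0.0307). Aldh4a1 had 28.1 to 39.1 and 28.2 to 36.2 CPM, against 33.6 to 46.3 and 35.1 to 52.1 CPM, with overlap in both sets (-0.39 ± 0.10, adjusted p = 0.0355). Gsto2 fell too (-0.81 ± 0.21, adjusted p = 0.041). None of the 4 calls held in all of the 17 leave-one-out fits, and 0 members were called without Rb1/Trp53/Crebbp T1 or T3. With the set as a term, 12 members fell and 0 rose, beside 18% of all genes called, 9.74% lower and 8.22% higher.

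The sets were also compared with each other, as Pomc-high over Calca-high libraries. Of 42 members, 20 were lower and 8 higher in the Pomc-high libraries (66.7%, beside 60.1% of 15432 genes, 31.1% lower and 28.9% higher). The 20 include Gpx2, Gstt3, Gstp2, Aldh1a3 and Aldh1a7, which passed the filter only through the libraries where they are high and so had to differ. Among the 37 members tested within both sets, 15 were lower and 8 higher (62.2%, beside 58.4% of 13632 genes; 40.5% lower beside 29.5%, and 21.6% higher beside 28.9%). The share called was close to that of all genes. The median log2 difference of these 37 was -0.22, beside 0.01 over all such genes, and the sets did not overlap for 3 lower and 3 higher members, which holds for 10.7% and 9.91% of these genes. Markers of other cells moved with the sets too. Thyroid follicular (8 of 8 tested), C-cell (4 of 4), fat (4 of 4), hepatocyte (5 of 6), lung (5 of 7, with 1 higher) and fibroblast markers (5 of 8) were lower in the Pomc-high libraries, and markers of other anterior lobe cells (9 of 9) were higher. The C-cell list includes Calca, whose count defined the sets. Within the Pomc-high libraries only 2 follicular, 1 fat, 2 hepatocyte and 2 lung markers were tested. None of the other anterior lobe markers was tested within the Calca-high libraries. Markers that passed the filter only through the set where they are high had to differ. The part of these cells in the member differences was not tested.

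With both genotypes in the fit, Gpx3 was the only peroxidase tested within both sets that differed past the threshold. Gpx1, Gpx4, Gpx7 and Gpx8 did not pass. Among Rb1/Trp53/Crebbp libraries alone 3 Gpx genes were higher and 2 lower of 6, beside 51.6% of all genes called. Among Rb1/Trp53 libraries alone 0 were higher and 3 lower of 6, beside 54.7%. The lower ones include Gpx2, which is no test. Gpx3 had 243 to 534 CPM, median 335, in the Pomc-high and 513 to 2734 CPM, median 1185, in the Calca-high libraries, a log2 difference of -2.12 ± 0.16 (adjusted p = 5.88e-09). Its sets overlapped only through Rb1/Trp53/Crebbp T3, the lowest Calca-high library. Gpx2 had a total of 21 counts over the 10 Pomc-high libraries, 0 to 0.506 CPM, against 1.49 to 20.8 CPM in the Calca-high libraries, given here with no test. Aldh2 had 49.3 to 71.5 CPM, median 62.7, in the Pomc-high and 166 to 516 CPM, median 231, in the Calca-high libraries (-2.26 ± 0.17, adjusted p = 4.62e-09). Aldh1b1 had 4.81 to 8.85 against 9.25 to 24.6 CPM (-1.25 ± 0.15, adjusted p = 1.54e-06). Neither Aldh gene's sets overlapped. The retinaldehyde dehydrogenase Aldh1a2 was lower as well (-1.74 ± 0.43). Aldh1a3 and Aldh1a7 had a total of 10 counts each over the 10 Pomc-high libraries, against 409 and 370 counts over the 7 Calca-high libraries, with no test.

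Theta-class transferases followed the same direction, while the mu-class neighbours split. Gstt1 had 4.07 to 11.5 CPM in the Pomc-high and 27.9 to 104 CPM in the Calca-high libraries (-2.86 ± 0.22, adjusted p = 6.57e-09), without overlap. Gstt2 had 2.75 to 9.59 against 5.66 to 23.7 CPM, with overlap (-1.35 ± 0.18, adjusted p = 4.13e-06), and Gstt3 had 73 counts over the Pomc-high libraries, against 1335 over the Calca-high ones, with no test. On chromosome 3, Gstm7 (0.93 ± 0.19) and Gstm6 (1.40 ± 0.41) were higher in the Pomc-high libraries, whereas Gstm1 (-0.98 ± 0.26), Gstm2 (-1.26 ± 0.24) and Gstm4 (-0.64 ± 0.11) were lower and Gstm5 (0.25 ± 0.16) did not pass. Gstp2 had 7 counts over the Pomc-high and 142 over the Calca-high libraries, likewise with no test. The lower members also included Mgst1, Mgst3, Gsta3, Gstk1, Aldh16a1 and Aldh3a2. Aldh3a2 (-0.20 ± 0.07) passed in 9 of 17 leave-one-out fits, between -0.25 and -0.14.

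Of the 8 higher members, 5 were Aldh genes. These were 29.4% of the 17 Aldh genes tested, near the 28.9% of all genes that were higher. A further 7 Aldh genes were lower, Aldh1a3 and Aldh1a7 among them with no test. Aldh18a1 had 88.3 to 195 CPM, median 160, in the Pomc-high and 53.4 to 78.5 CPM, median 55.6, in the Calca-high libraries (1.29 ± 0.14, adjusted p = 3.57e-07). Aldh5a1 had 55.8 to 74.0 against 32.3 to 41.9 CPM (0.85 ± 0.08, adjusted p = 4.32e-08). Neither overlapped, nor did Aldh6a1 (0.80 ± 0.11). Gsto1 (1.02 ± 0.19) and Aldh9a1 (0.19 ± 0.06) were higher with overlap. Aldh1l2 (1.05 ± 0.36, adjusted p = 0.017) was higher too, but the difference was 2.25 ± 0.20 among Rb1/Trp53 libraries and 0.01 ± 0.26 among Rb1/Trp53/Crebbp libraries, and it lost its call without Rb1/Trp53 T3 or T4 (highest adjusted p = 0.0645).

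The set difference varied with genotype for several members; these values rest on the same libraries as the interaction. Of the 37 members tested within both sets, 12 were higher and 9 lower among Rb1/Trp53/Crebbp libraries (56.8%, beside 50.1% of such genes, 25.5% higher and 24.6% lower). Among Rb1/Trp53 libraries 5 were higher and 21 lower (70.3%, beside 52.7%, 26.2% higher and 26.5% lower). Over all genes tested, the shares were 51.6% and 54.7%. Gpx8 was higher in Pomc-high libraries among the Rb1/Trp53/Crebbp tumours (0.96 ± 0.29, adjusted p = 0.018) and lower among the Rb1/Trp53 tumours (-1.39 ± 0.34, adjusted p = 0.00454). Gstz1 (0.52 ± 0.09 against -0.39 ± 0.12) and Gstp1 (0.42 ± 0.12 against -0.42 ± 0.10) also passed with opposite signs. Pooled over genotypes, Gpx8, Gstz1 and Gstp1 showed no set difference past the threshold (-0.32 ± 0.37, 0.04 ± 0.13 and -0.02 ± 0.12).

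**Figure D4:**
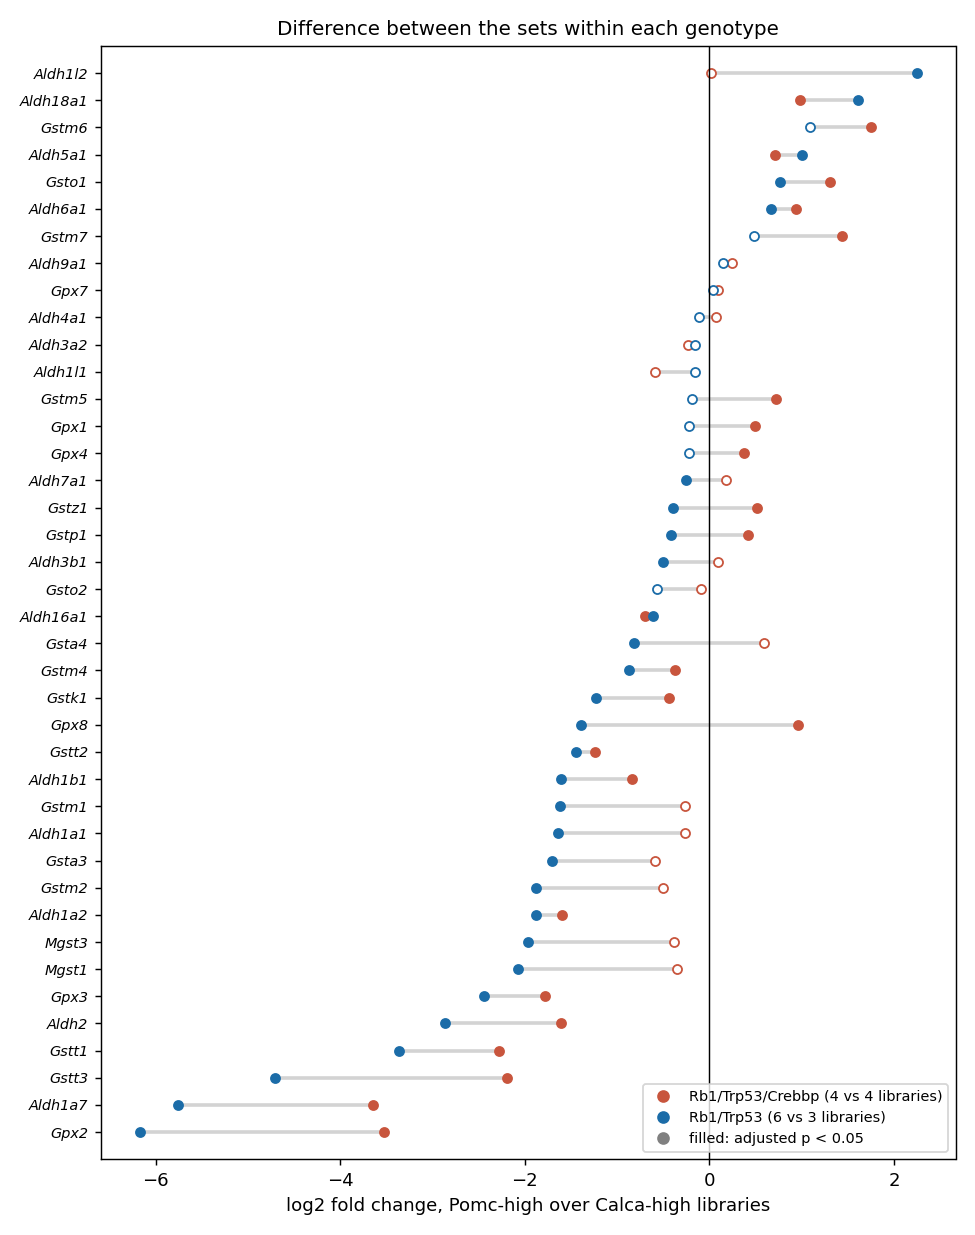
Log2 fold change of Pomc-high over Calca-high libraries (x axis) for each member tested in both genotypes (y axis), among Rb1/Trp53/Crebbp libraries (4 against 4) and Rb1/Trp53 libraries (6 against 3), filled where the adjusted p is under 0.05. Gpx8, Gstz1 and Gstp1 are filled on opposite sides of 0, and Aldh1l2 lies at 0.01 and 2.25. The fitted values of Gpx2, Gstt3 and Aldh1a7 rest on few Pomc-high counts and are no test.

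Genes around the members in the same pathways were counted from lists. The share of all genes called with genotype was 36.2% in the Calca-high and 8.42% in the Pomc-high libraries. Of 28 tested genes of glutathione synthesis and turnover, 3 rose and 10 fell in the Calca-high libraries (46.4%, median log2 fold change -0.22), and 0 rose and 3 fell in the Pomc-high libraries (10.7%, median -0.11). Glrx, glutaredoxin, fell in both sets, to 10.1 to 13.2 CPM in Rb1/Trp53/Crebbp, against 18.3 to 33.9 CPM in Rb1/Trp53 Calca-high libraries (-1.04 ± 0.22, adjusted p = 0.00841), and by 0.66 ± 0.14 in the Pomc-high ones (adjusted p = 0.0118). Ggt1 (-1.49 ± 0.32 in Calca-high, -1.03 ± 0.27 in Pomc-high) and Ggt5 (-1.21 ± 0.32 and -1.53 ± 0.32), which cleave extracellular glutathione and its conjugates, also fell in both. Hagh, a hydrolase of the glyoxalase pathway, fell in the Calca-high libraries (-0.69 ± 0.14), and Chac1, which degrades glutathione inside the cell, rose there to 6.69 to 16.3 CPM, against 4.17 to 6.37 CPM (1.36 ± 0.32, adjusted p = 0.0142). The enzymes of glutathione synthesis Gclc (0.02 ± 0.10) and Gclm (-0.15 ± 0.13), named after their values were seen, did not pass in the Calca-high libraries.

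Of 33 tested genes of the NRF2 pathway and the thioredoxin system, 2 rose and 16 fell in the Calca-high libraries (54.5%, median -0.35) and 0 rose and 4 fell in the Pomc-high libraries (12.1%, median 0.02). Prdx6, a peroxiredoxin that uses glutathione, had 49.7 to 63.3 CPM in Rb1/Trp53/Crebbp, against 97.4 to 142 CPM in Rb1/Trp53 Calca-high libraries (-1.02 ± 0.14, adjusted p = 0.00228). Mafk, a small MAF partner of NRF2, fell in both sets (-0.53 ± 0.10 in Calca-high, -0.45 ± 0.13 in Pomc-high), Taldo1 of the pentose phosphate pathway fell (-0.56 ± 0.11) and the rises were Abcc5, an exporter (0.82 ± 0.11), and Mafg, another small MAF protein (0.68 ± 0.15), in the Calca-high set. Nfe2l2 itself, named after its values were seen, had 64.4 to 94.4 CPM in Rb1/Trp53/Crebbp against 105 to 167 CPM in Rb1/Trp53 Calca-high libraries (-0.84 ± 0.18, adjusted p = 0.0104) and 42.5 to 51.7 against 43.3 to 53.9 CPM in the Pomc-high set (-0.05 ± 0.09, adjusted p = 0.794). In the Pomc-high libraries the falls were Osgin1 (-2.01 ± 0.41), the haem oxygenase gene Hmox1 (-1.57 ± 0.33), Mafk and Mafg (-0.46 ± 0.13).

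Other aldehyde and ketone enzymes gave 2 rises and 13 falls of 25 in the Calca-high libraries (60%, median -0.39) and none of 21 in the Pomc-high ones (0.08), where 4 had an unadjusted p under 0.05 (edgeR). The reductases Cbr2 (-2.19 ± 0.38), Akr1c12 (-2.66 ± 0.47) and Akr1c13 (-1.25 ± 0.25) fell, and Hpgds, a sigma-class glutathione transferase that makes prostaglandin D and lies outside the symbol rule, rose to 18.4 to 48.7 CPM, against 6.88 to 13.3 CPM (1.97 ± 0.41, adjusted p = 0.00947). Retinoid genes gave 2 rises (Rdh11 and Rarb) and 1 fall (Rdh5) of 13 in the Calca-high (23.1%) and 1 fall of 12 (Rdh10) in the Pomc-high libraries (8.33%), at or below the share of all genes. Between the sets, the 4 lists had 8 higher and 18 lower of 29, 3 and 14 of 33, 2 and 17 of 26, and 2 and 7 of 15 genes, in the order of the lists above. These are 89.7%, 51.5%, 73.1% and 60% of each list, beside 60.1% of all genes, so the NRF2 and retinoid lists lie at or below that share. Within the Pomc-high libraries 28, 33, 21 and 12 genes of the lists were tested, and within the Calca-high libraries 28, 33, 25 and 13. Genes that passed the filter only through the set where they are high had to differ. The shares of the aldehyde and retinoid lists between the sets are thus no measure of an excess. Of the 29 glutathione genes, 28 were tested within each set, so this filter can account for few of their calls. Whether that list exceeds the share of all genes was not tested.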

How the data were processed

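Total RNA was extracted with TRIzol from 17 tumours, poly(A) RNA was isolated on oligo-dT and the NEBNext Ultra kit was used for library preparation, per the labels' protocols. The authors deposited raw counts per gene for each library, made with bcl2fastq 1.8.2, TopHat2 2.0.12 and HTSeq 0.6.1 on mm9, per the submitters' processing notes. Which annotation and strand setting were used is not given in the sources used here. The 5 summary rows were left out; 64.5 to 78.3% of the reads tallied in each file lay on genes, 11.7 to 21.7% on no feature, 8.20 to 18.5% were not unique and 0.56 to 0.843% ambiguous. No pair of libraries agreed within sampling noise (lowest chi-square per degree of freedom 8.30 over 30 pairs within groups).

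Counts were filtered with filterByExpr, normalized by TMM and tested with edgeR 4.0.16 (quasi-likelihood, R 4.3.3) over all genes, with Benjamini-Hochberg adjustment and a threshold of 0.05. Where a count at an unadjusted p under 0.05 is given, the share of all genes at that p was not computed. Such counts are no measure of an excess. Levels are CPM, computed here from the deposited counts over the TMM-scaled library size. Log2 fold changes are edgeR's fitted values (prior count 0.125). Sets were assigned by whether Pomc or Calca had more counts. The members, the 4 pathway lists and 13 marker lists were chosen with earlier results of these data known. All members past the threshold are named, with values by library for up to 8 per comparison that had the smallest adjusted p and a mean of at least 5 CPM in a group, together with the 3 most abundant members of each family and up to 4 genes per pathway list and comparison. Alternatives were DESeq2 1.42.0, limma 3.58.1 (voom), other normalizations and filters, a replicate block, the set as a term, each genotype alone and each library left out (68 fits). Scripts were tested on simulated data. Figures used matplotlib 3.10.9.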

Additional observations from a re-analysis of the deposited data

Results flagged for a closer look

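The genotype response differed between the Pomc-high and Calca-high libraries for 18 of 42 members by the interaction test (edgeR quasi-likelihood, Benjamini-Hochberg adjusted). Each value is the log2 fold change of Rb1/Trp53/Crebbp over Rb1/Trp53 in the Pomc-high minus that in the Calca-high libraries. The positive differences were Aldh2 1.23, Gstz1 0.89, Mgst3 1.56, Gstp1 0.81, Gpx8 2.33, Gpx1 0.70, Gstm5 0.89, Gstm2 1.34, Gsta4 1.38, Mgst1 1.69, Gstm1 1.34, Gstm7 0.93, Aldh1b1 0.75, Gpx2 2.60, Gstk1 0.77 and Gstt1 1.06, with adjusted p-values between 0.00037 and 0.0474. The negative differences were Aldh1l2 -2.25 (adjusted p = 0.000569) and Aldh18a1 -0.65 (adjusted p = 0.037). Gpx2 passed the low-count filter only through the Calca-high libraries and had a total of 21 counts in the 10 Pomc-high ones, so its difference is no test of a response in both sets. Without such members, 17 of 37 differed, beside 24.5% of all genes tested within both sets.

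In 5 of 63 groups of members and libraries (7.94%) a single library stood apart from the rest of its group by more than Dixon's limit, where chance gives about 1 in 20. All 5 were Pomc-high, but so were most of the groups checked. The Rb1/Trp53 libraries of the Calca-high set (n = 3) were too few for the check and were left out. Rb1/Trp53/Crebbp T6 had 70.4 CPM of Aldh1l2, where the others of its group had 32.4 to 38.0 CPM. Rb1/Trp53/Crebbp T5 had 0.421 CPM of Gpx2, where the others had 0.0740 to 0.110 CPM, on a total of 7 counts in the 4 libraries. Rb1/Trp53/Crebbp T8 had 89.2 CPM of Gstm1 (others 28.3 to 36.9 CPM) and 65.2 CPM of Gstm5 (others 52.7 to 54.7 CPM). Rb1/Trp53 T8 had 43.7 CPM of Gstp1, where the others had 37.2 to 38.5 CPM.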

How the results depend on the processing

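The number of members called in the Pomc-high genotype comparison was 4 (8.42% of all genes called), and 8 with DESeq2 (2 higher, 6 lower; 13.8%) and 1 with the replicate block (2.53%). In the Calca-high comparison it was 29 (36.2%), and 17 with T4 as the only Rb1/Trp53 library (16.8%), an alternative added after seeing the data. Over all 17 libraries it was 4 (3.86%), and 7 with DESeq2 (9.74%), 2 with limma-voom (3.83%), 1 with the replicate block (3%) and 12 with the set as a term (18%). The interaction had 18 (22.9%), and 10 with T4 alone (11.6%). Over genes tested within both sets, a restriction also added after seeing the data, the interaction had 17 (24.5%) and the set difference 23 members (58.4%). With each library left out in turn, the counts ran from 1 to 6 (Pomc-high; 5.29 to 8.6% of all genes), 23 to 28 (Calca-high; 23.9 to 35.3%), 0 to 4 (all 17; 1.98 to 6.9%), 27 to 29 (between sets; 56.6 to 60.6%) and 10 to 21 (interaction; 16.1 to 24.9%). Over all 17, the count was 0 without Rb1/Trp53/Crebbp T1 or T3, 1 without Rb1/Trp53 T1 or Rb1/Trp53/Crebbp T2 or T4, and 2 without Rb1/Trp53 T3 or T5 to T9 or Rb1/Trp53/Crebbp T6. The cause of these shifts was not tested.

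Replicate numbers were not taken to pair the samples. Same-numbered tumours correlated at 0.2, -0.0253, -0.137 and -0.0748 for T5 to T8 (Pomc-high) and 0.129, 0.0535 and -0.155 for T1, T3 and T4 (Calca-high). Differently numbered tumours correlated at -0.195 to 0.218 (Pomc-high) and -0.287 to 0.236 (Calca-high). These values, taken as deviations from group means, cannot decide whether the numbers mark a pairing. With the replicate block the Calca-high comparison called 20 members (1 higher, 19 lower), beside 18.2% of all genes. No block fit was made for the set difference or the interaction.

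The direction turned in 23 member values, of which 1 passed the threshold. In the Pomc-high genotype comparison, Gstz1 was 0.00012 with DESeq2 size factors, 0.000288 with DESeq2, 0.00886 with limma-voom, and 0.0188 to 0.0482 without Rb1/Trp53 T5, T7 or T8 or Rb1/Trp53/Crebbp T6 or T8. In the same comparison, Gpx4 was -0.0255 with the replicate block and -0.0131 without Rb1/Trp53 T2, and Aldh6a1 was 0.00626 and 0.0103 without Rb1/Trp53/Crebbp T5 or T7. Aldh6a1 was 0.11 (Calca-high genotype) and -0.17 (interaction) with T4 alone. Over all 17, Gstm5 was 0.00428 to 0.0526 without Rb1/Trp53 T7 or any of Rb1/Trp53/Crebbp T1 to T4. Leave-one-out values ran from -0.0462 to 0.0482 for Gstz1, -0.0131 to 0.189 for Gpx4 and -0.109 to 0.0103 for Aldh6a1 (Pomc-high), and from -0.117 to 0.0526 for Gstm5 (all 17). Between sets among Rb1/Trp53 libraries, Gpx1 was -0.22, Gpx4 -0.22, Gstm5 -0.19 and Gstz1 -0.39 (adjusted p = 0.0174).

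Groups of 3 to 6 libraries limit precision, and members with few counts in the Pomc-high libraries (Gpx2, Aldh1a3, Aldh1a7, Gstp2) have fitted fold changes that depend on the prior count.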
